A study of Mus musculus with 4 samples.

Results

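Imprinted growth genes were followed in whole mouse embryos that lack the orphan nuclear receptor Nr6a1, for which Gcnf is the older name. A list of 38 imprinted genes was read from Affymetrix mouse expression arrays at E9.0 in 2 homozygous mutant embryos, labelled Gcnf-/-, and 2 wild type embryos, labelled wt. Every probe set that the platform annotation gives to a single listed symbol was taken, and where a gene had several, the brightest over the 4 arrays stood for it and the others are described beside it. This gave 93 probe sets of 45037 tested and 34 of the 38 genes, among 18193 genes in all. H19 was not measured, because its probe set also carries the symbol Mir675, and the annotation gave no probe set to Zrsr1, Dio3 or Rtl1. In all, 8 probe sets of listed genes, that of H19 included, carry a second symbol and were left out, 6 of them shared by Snurf and Snrpn.

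Genomic imprinting leaves a gene active from the maternal or the paternal copy alone, by DNA methylation that is laid down in the germ cells and kept through the divisions of the early embryo. Imprinted genes lie in clusters that share a control region, and many set the growth of the embryo and placenta: Igf2 and several other paternally expressed genes promote growth, while Igf2r, Cdkn1c, Grb10 and Phlda2 on the maternal side restrain it. An imprint lost or gained on a control region typically silences some genes of a cluster and leaves others active from both copies, so that maternally and paternally expressed genes of that cluster move in opposite directions.

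The labels give neither genotype another allele or a treatment. Replicates are treated as different embryos, since the study's methods extracted RNA embryo by embryo. Those methods name a collection window wider than the labelled stage, and neither litter nor somite number is known here. The mutation is in every cell of the embryo rather than in a single tissue, and the study describes slowed development in such embryos. Signals are log2 values made with RMA, the robust multi-array average, so that a difference of 1 is 2-fold, and a probe set below the median signal of 6.84 is called dim. In whole embryos, fewer cells of a type and less RNA per cell cannot be told apart, and an array signal does not show which parental copy was read.

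Across the series, arrays of a genotype correlated at 0.9975 (Gcnf-/-) and 0.9973 (wt), and arrays of different genotype at 0.9931 to 0.9952. The 5 Nr6a1 probe sets lay 0.05 to 0.56 higher in Gcnf-/- embryos with no adjusted p at or under the threshold, and since the position of their probes relative to the deletion is not known here, they do not check the labels. By Xist and Eif2s3y the wt replicate 1 embryo was female and the other 3 male, and 0 of the 38 imprinted genes lie on X or Y. The probe sets for 18S ribosomal RNA read 10.83 and 10.74 in Gcnf-/- embryos, against 9.45 and 9.99 in wt embryos. The poly-A RNA spikes averaged 9.66 and 9.59 in Gcnf-/- embryos, against 8.96 and 9.61 in wt embryos, so that wt replicate 1 stood apart. The part of embryo sex and of RNA quality in the values below was not tested.

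The sequence motif read by the receptor family is shown first, since it can be read directly beside the listed genes. Nr6a1 binds repeats of AGGTCA as a dimer. Promoter sequences from RefSeq (GRCm38.p6, from 250 bases before to 50 bases after the transcript start) were available for 30 of the 38 genes; Cdkn1c, Dcn, H19, Impact, Kcnq1, Peg10, Rtl1 and Sgce had no entry. AGGTCA or its reverse complement TGACCT was found in 4 of the 30 (Gatm, Igf2, Igf2r and Meg3), against 18.1% of 27025 genes with a promoter in the table. The longer TCAAGGTCA or its reverse complement, which contains the first motif, was found in 0 of the 30, against 0.466% of all genes. These matches are letters in a window, not binding sites. The stretches are given 5′ to 3′ on the strand of the gene, with the motif in capitals.
Gatm promoter: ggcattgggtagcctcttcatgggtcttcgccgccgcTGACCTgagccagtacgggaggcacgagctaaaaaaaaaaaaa
Igf2 promoter: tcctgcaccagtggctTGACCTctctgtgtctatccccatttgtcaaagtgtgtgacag
Igf2r promoter: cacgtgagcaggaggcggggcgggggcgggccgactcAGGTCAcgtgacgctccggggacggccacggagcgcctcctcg
Meg3 promoter: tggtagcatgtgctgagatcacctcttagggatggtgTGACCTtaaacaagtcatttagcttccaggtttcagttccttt
The Gatm stretch is chr2:122611391-122611470 on the minus strand, the Igf2 stretch chr7:142667008-142667066 on the minus strand, the Igf2r stretch chr17:12769675-12769754 on the minus strand and the Meg3 stretch chr12:109545220-109545299 on the plus strand. The motif begins at position -156 in Gatm, -234 in Igf2, -11 in Igf2r and -141 in Meg3, counted from the transcript start. Igf2r carries it on the strand of the gene and the other 3 on the opposite strand. H19 is represented here only by the microRNA precursor within it, miR-675, because the symbol shared with that precursor is what kept H19 out of the measured genes. Its mature products are given with the seed (bases 2 to 8) in capitals, from chromosome 7 on the minus strand, at 142577078 to 142577099 for the 3p arm and at 142577112 to 142577133 for the 5p arm.
mmu-miR-675-3p: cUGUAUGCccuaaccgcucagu
mmu-miR-675-5p: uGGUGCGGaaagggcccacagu

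The imprinted genes as a group were close to wt levels in Gcnf-/- embryos. None of the 34 was called lower and none higher when at least a 2-fold difference was required beside an adjusted p of 0.05 or lower (limma, a linear model that shares the spread between embryos across probe sets, with Benjamini-Hochberg adjustment over all of them), where 0.121% of all genes were called lower and 0.423% higher. With no fold threshold, 0 of the 34 were lower, against 0.374% of all genes, and 1 was higher, against 1.02% of all genes: Cdkn1c. At an unadjusted p under 0.05 there were 8 of 34 (23.5%), 6 higher and 2 lower, a share next to the 23.8% of all genes. The log2 fold change (Gcnf-/- minus wt) had a median of 0.07 over the 34 and of -0.01 over all genes.

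More of the imprinted genes lay above wt than below, which is given as a description with no test. In 21 of the 34 genes (61.8%) the Gcnf-/- mean lay above the wt mean, against 47.2% of all genes. Both Gcnf-/- embryos lay above both wt embryos in 15 genes (44.1%), against 26.2% of all genes, and below both in 6 (17.6%), against 30.4% of all genes. The genotypes overlapped in the other 13. The 95% interval of the log2 fold change lay within -1 and 1 for 33 of the 34 genes (97.1%), against 97.3% of all genes, Dcn being the exception, and within -0.5 and 0.5 for 26 (76.5%), against 80.5% of all genes.

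**Figure D1:**
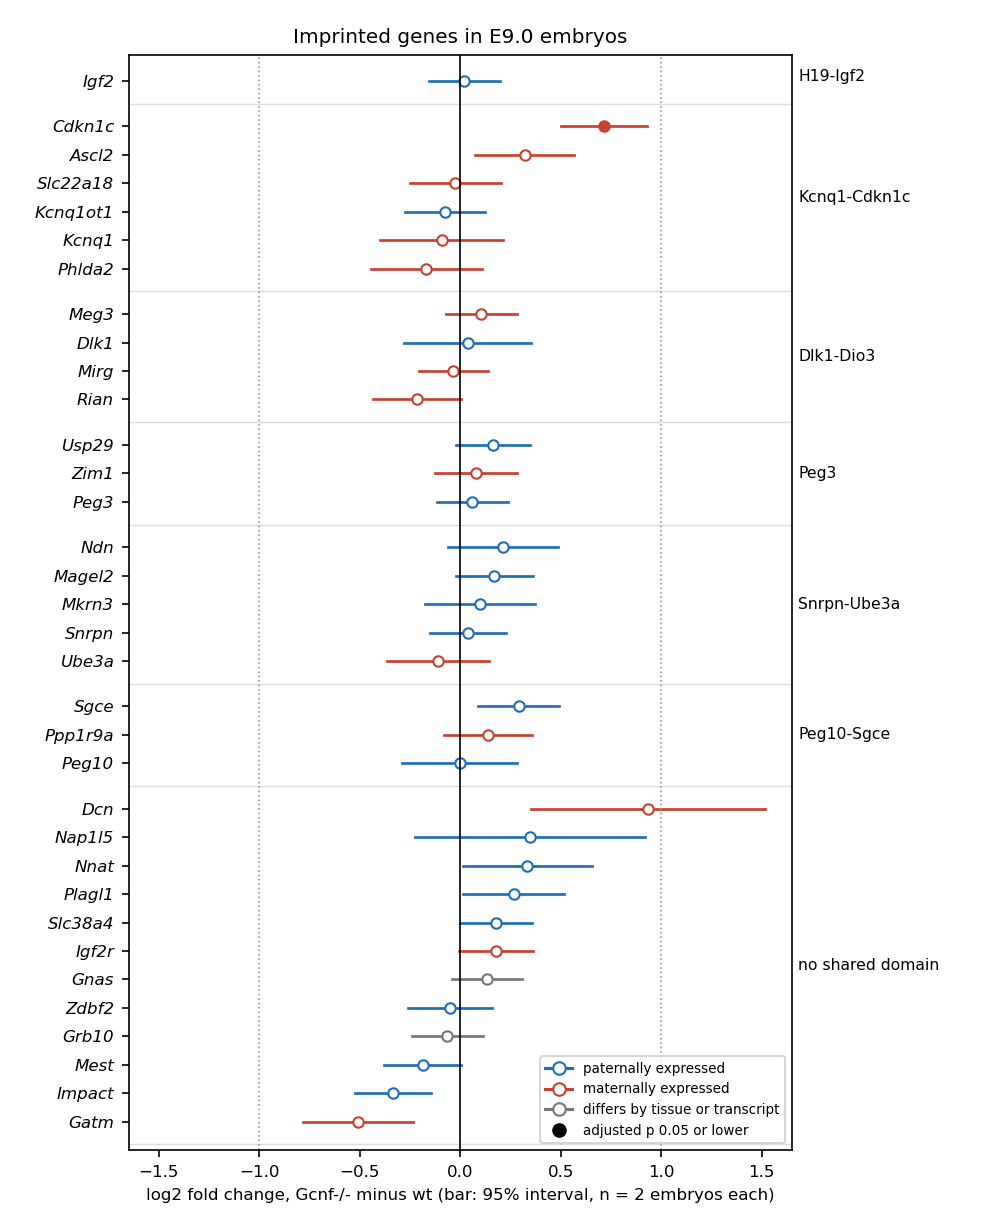
The log2 fold change (Gcnf-/- minus wt, horizontal axis) of the 34 measured imprinted genes is grouped by imprinted domain, with 95% intervals from limma (n = 2 embryos each), blue for paternally and red for maternally expressed genes, grey for Grb10 and Gnas, and dotted lines at a 2-fold difference. Cdkn1c, at 0.71, is the only filled point (adjusted p of 0.05 or lower), and of the intervals only that of Dcn reaches past a dotted line.

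Both parental classes held genes above and below wt. The 18 measured paternally expressed genes (of 21 listed) had a median log2 fold change of 0.08, with 13 above and 5 below wt, and ranged from -0.34 for Impact to 0.35 for Nap1l5. The 14 measured maternally expressed genes (of 15 listed) had a median of 0.02, with 7 above and 7 below, and ranged from -0.51 for Gatm to 0.93 for Dcn. Grb10 and Gnas, whose expressed copy depends on tissue or transcript, were at -0.06 and 0.13. The genotypes did not overlap in 10 of the 18 paternally expressed genes (55.6%, 8 higher and 2 lower) and in 9 of the 14 maternally expressed ones (64.3%, 6 higher and 3 lower), against 56.6% of all genes. Both medians depend on single embryos or settings: the paternal one was 0.0373 without wt replicate 1 and 0.135 without Gcnf-/- replicate 2, and the maternal one 0.0627 without wt replicate 1 and -0.0310 with probe sets averaged per gene.

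Cdkn1c was the imprinted gene with the clearest difference. It encodes p57, a maternally expressed inhibitor of cyclin-dependent kinases that restrains growth. Its signal was 12.26 and 12.38 in Gcnf-/- embryos, against 11.56 and 11.65 in wt embryos, and the genotypes did not overlap. The difference of 0.71 ± 0.08 on the log2 scale (limma SE, 95% interval 0.50 to 0.93, 1.64-fold) had an adjusted p of 0.0431, and it rests on 1 probe set. The difference kept its size when any embryo was left out (0.65 to 0.78), but its adjusted p was 0.150 to 0.292 in those fits and 0.167 with the replicate number as a block, a fit that compares same-numbered embryos.

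No other gene of the Kcnq1-Cdkn1c domain passed the threshold. Cdkn1c, Phlda2, Slc22a18, Ascl2 and Kcnq1 are expressed from the maternal copy and are silenced on the paternal copy in cis by the long noncoding RNA Kcnq1ot1, although placental tissue holds part of that silencing. Ascl2, a transcription factor needed by the spongiotrophoblast of the placenta, was dim, at 6.34 and 6.15 in Gcnf-/- embryos and 5.98 and 5.86 in wt embryos (0.32 ± 0.10, adjusted p = 0.169, limma). Its other 2 probe sets were at 0.06 and 0.32. Phlda2, which limits placental growth, was at -0.17 with overlapping genotypes. Slc22a18, a transporter of the organic cation family, was at -0.03, with -0.11 in its second probe set. The potassium channel gene Kcnq1, also dim, was at -0.09. Kcnq1ot1 itself read 10.20 and 10.10 in Gcnf-/- embryos and 10.27 and 10.18 in wt embryos (-0.08, overlapping), and of its 6 probe sets 4 lay above and 2 below wt, none by more than 0.19. The domain's median over 6 genes was -0.05.

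Igf2, the paternally expressed fetal growth factor, did not differ detectably. It read 14.54 and 14.50 in Gcnf-/- embryos, against 14.53 and 14.48 in wt embryos, a difference of 0.02 with a 95% interval of -0.16 to 0.20 (adjusted p = 0.921, limma). This signal is near the top of the arrays' range, where the highest signals were 15.11 to 15.16, and compression of differences there was not tested. Its dim second probe set read 6.48 and 6.21 in Gcnf-/- embryos and 5.57 and 6.03 in wt embryos, and gave 0.55 (adjusted p = 0.190). Its stretch of promoter is shown above with 1 TGACCT.

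Igf2r and Grb10, the receptor-side restraints on Igf2, gave small positive or mixed values, and the transcription factor gene Plagl1 gave positive ones. Igf2r, the maternally expressed receptor that carries Igf2 to the lysosome, read 11.77 and 11.71 in Gcnf-/- embryos, against 11.60 and 11.53 in wt embryos, with no overlap (0.18, 95% interval -0.01 to 0.36, adjusted p = 0.263). Its second probe set gave 0.06. Grb10, an adaptor that damps signalling from the insulin and IGF receptors, read 13.50 and 13.46 in Gcnf-/- embryos, against 13.56 and 13.52 in wt embryos (-0.06, adjusted p = 0.670). Its 2 dimmer probe sets had the opposite sign, at 0.22 and at 0.62, and the dimmest of these read 7.47 and 7.47 in Gcnf-/- embryos, against 6.73 and 6.98 in wt embryos (adjusted p = 0.0718). Plagl1, a paternally expressed zinc finger factor that regulates a network of other imprinted genes, read 13.38 and 13.21 in Gcnf-/- embryos and 13.11 and 12.95 in wt embryos (0.26 ± 0.10, adjusted p = 0.227). All 3 of its probe sets lay above wt, by 0.09 to 0.45.

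Outside the imprinted list, the IGF axis held a single call, in a carrier protein, where 0.423% of all genes were called higher and 0.121% lower. The list of 17 held genes for ligands, receptors, adaptors, IGF binding proteins and their proteases, and the Igf2bp genes, whose proteins bind RNA. Of the 17 genes 16 were measured. Of these, 10 (62.5%) lay above wt, against 47.2% of all genes, with a median of 0.05. At an unadjusted p under 0.05 there were 6 (37.5%), Igf2bp1 at -0.27 among them, against 23.8% of all genes. Igfbp2, which binds IGFs in body fluids, read 13.27 and 13.20 in Gcnf-/- embryos, against 12.21 and 12.21 in wt embryos, and rose by 1.02 ± 0.07 (95% interval 0.85 to 1.20, adjusted p = 0.0154, limma). The size was 0.99 to 1.06 with any embryo left out, with adjusted p of 0.108 to 0.192, and the adjusted p with the replicate block was 0.160. The next by p did not pass: the carrier Igfbp3 read 9.78 and 9.69 in Gcnf-/- embryos against 8.93 and 9.18 in wt embryos (0.68, adjusted p = 0.0659), the protease gene Pappa was at 0.69 (adjusted p = 0.101), and Igfbp4, the carrier it cleaves, at -0.41 (adjusted p = 0.108). The receptor gene Igf1r was at -0.05 and Igf1 at 0.37 (adjusted p = 0.272).

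**Figure D2:**
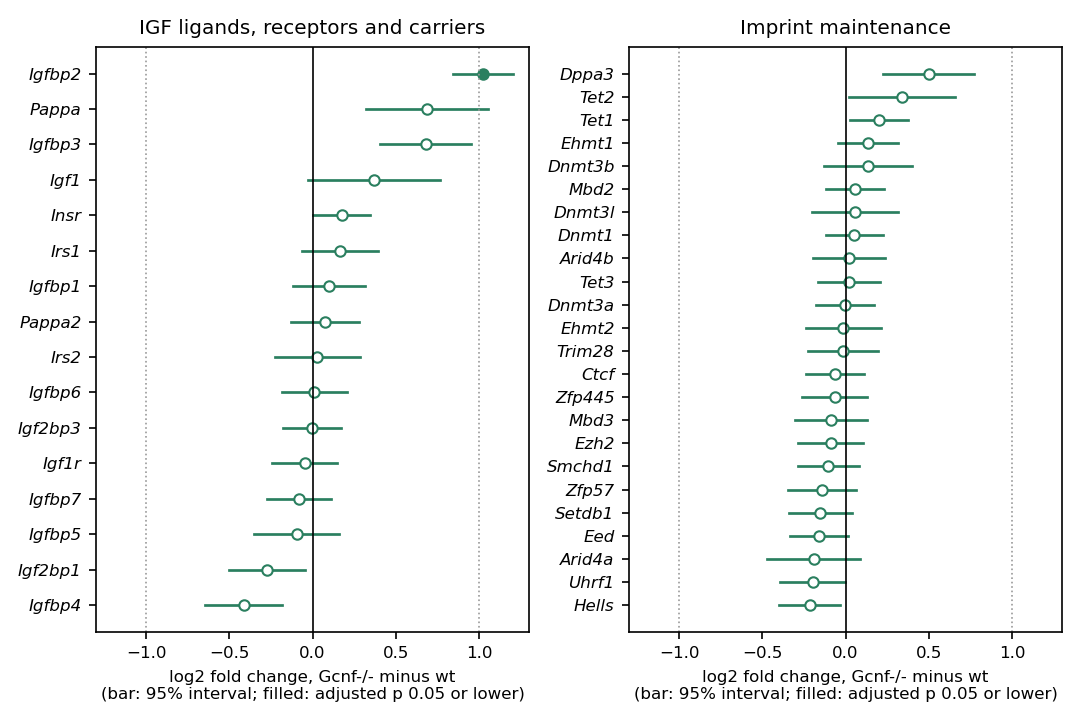
The log2 fold change (Gcnf-/- minus wt, horizontal axes) is shown with 95% intervals for the 16 measured genes of the IGF axis on the left and the 24 measured imprint maintenance genes on the right, with dotted lines at a 2-fold difference (n = 2 embryos each). Igfbp2 at 1.02 is the only filled point, and the highest maintenance gene is Dppa3, which is dim, at 0.50.

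In the Dlk1-Dio3 domain the values lay on both sides of wt. Dlk1, a paternally expressed transmembrane protein of the Notch ligand family that acts in fetal growth, read 12.88 and 12.63 in Gcnf-/- embryos and 12.84 and 12.60 in wt embryos, so that embryos of a genotype differed more than the genotypes did (0.04, 95% interval -0.28 to 0.35). The dim second probe set of Dlk1 gave 0.13. Meg3, a maternally expressed long noncoding RNA, read 13.23 and 13.23 in Gcnf-/- embryos, against 13.15 and 13.10 in wt embryos (0.11, adjusted p = 0.464). The rest of the maternal transcripts were lower in both Gcnf-/- embryos. Rian, which hosts small nucleolar RNAs, read 10.27 and 10.26 in Gcnf-/- embryos, against 10.39 and 10.57 in wt embryos (-0.21 ± 0.09, adjusted p = 0.255), and its other 3 probe sets overlapped, at -0.12 to 0.11. Mirg, which hosts microRNAs, read 11.25 and 11.22 in Gcnf-/- embryos, against 11.27 and 11.26 in wt embryos (-0.03), with 0.02 in its second probe set. The median over the 4 genes was 0.00043.

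Meg3 was the gene with the most probe sets, and they differed in sign. Of 11 probe sets, 4 lay above wt and 7 below. The identifiers of the 4 above end in _x_at, _s_at or _a_at, and those of the 7 below in plain _at. The 4 above had mean signals between 11.81 and 13.18 and log2 fold changes of 0.10 to 0.17. Of the 7 below, 1 had a mean signal of 12.93 (-0.05) and the other 6 had 7.43 to 9.69, with -0.22 to -0.04. None passed the threshold, and which transcript forms each probe set reads was not tested.

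**Figure D3:**
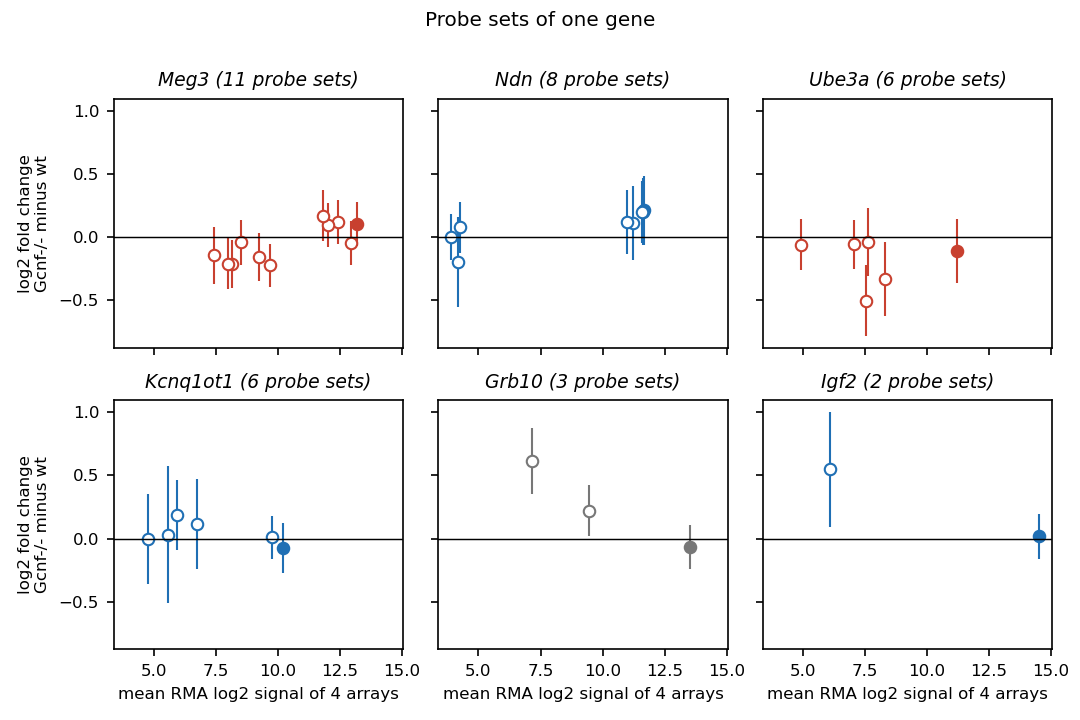
For 6 imprinted genes with several probe sets, the log2 fold change (Gcnf-/- minus wt, vertical axis, 95% interval) is plotted against the mean signal of the 4 arrays (horizontal axis, RMA log2), with the brightest probe set filled. The dimmer Meg3 probe sets lie below 0 and most of the brighter ones above it, all 6 Ube3a probe sets lie below 0, and the other probe sets of Grb10 and Igf2 lie higher than their brightest.

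The Peg3 domain was steady. Peg3, a paternally expressed zinc finger protein of growth and maternal behaviour, read 13.33 and 13.34 in Gcnf-/- embryos, against 13.25 and 13.31 in wt embryos (0.06, adjusted p = 0.699), and 4 of its 5 probe sets lay above wt. The fifth (-0.18) and the dimmest of those above (0.07) were near the floor of the arrays. Usp29, a ubiquitin protease gene transcribed away from Peg3, read 7.143 and 7.101 in Gcnf-/- embryos, against 6.998 and 6.919 in wt embryos (0.16, adjusted p = 0.292), and its dim second probe set gave -0.03. The maternally expressed zinc finger gene Zim1 was dim and at 0.08.

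In the Snrpn-Ube3a domain the 4 measured paternally expressed genes lay above wt and the maternally expressed one below, with no call in either direction. Ndn, which encodes the growth suppressor necdin, read 11.85 and 11.72 in Gcnf-/- embryos, against 11.69 and 11.45 in wt embryos (0.21 ± 0.11, adjusted p = 0.351), with 7 of its 8 probe sets above wt. Those at mean signals of 4.25 (0.08) and 3.91 (0.00017) were near the floor, as was that below wt at 4.17 (-0.20). Magel2, of the same MAGE family, read 7.74 and 7.85 in Gcnf-/- embryos, against 7.64 and 7.62 in wt embryos (0.17). The ubiquitin ligase gene Mkrn3 was at 0.10 and Snrpn, of the splicing machinery, at 0.04, both with overlapping genotypes. Ube3a, a ubiquitin ligase gene that is imprinted in neurons and read from both copies in most other tissues, gave 11.24 and 11.03 in Gcnf-/- embryos and 11.29 and 11.20 in wt embryos (-0.11, adjusted p = 0.597). All 6 Ube3a probe sets lay below wt, by up to -0.50 in one that read 7.33 and 7.27 in Gcnf-/- embryos and 7.94 and 7.67 in wt embryos (adjusted p = 0.108).

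In the Peg10-Sgce domain the differences were small. Sgce, the paternally expressed gene of the membrane protein epsilon-sarcoglycan, read 11.09 and 11.14 in Gcnf-/- embryos, against 10.76 and 10.89 in wt embryos. The difference was 0.29 ± 0.08 (95% interval 0.09 to 0.49, adjusted p = 0.143, limma), and the dim second probe set of Sgce gave 0.15. Ppp1r9a, which encodes the actin-binding protein neurabin and is maternally expressed in extraembryonic tissue, read 10.45 and 10.38 in Gcnf-/- embryos, against 10.20 and 10.36 in wt embryos (0.14), with 2 of its 5 probe sets below wt. Peg10, a retrotransposon-derived gene that the placenta requires, was dim and at 0.00, where its values were 6.69 and 6.98 in Gcnf-/- embryos and 6.83 and 6.85 in wt embryos.

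Among genes outside these domains, Dcn had the largest positive difference of all 34 and Gatm the largest negative one, both with the genotypes apart. Dcn, which encodes the matrix proteoglycan decorin and is imprinted in the placenta, read 10.28 and 9.76 in Gcnf-/- embryos, against 8.85 and 9.33 in wt embryos (0.93 ± 0.23, 95% interval 0.35 to 1.51, adjusted p = 0.122, 1.91-fold). Its second probe set was dim, at -0.09. Gatm, which encodes the enzyme of the first step of creatine synthesis and is imprinted in placenta and yolk sac, read 6.74 and 6.91 in Gcnf-/- embryos, against 7.44 and 7.23 in wt embryos (-0.51 ± 0.11, 95% interval -0.78 to -0.24, adjusted p = 0.103). Impact, which inhibits activation of the translation kinase Gcn2, read 10.47 and 10.46 in Gcnf-/- embryos, against 10.85 and 10.75 in wt embryos (-0.34 ± 0.07, 95% interval -0.52 to -0.15, adjusted p = 0.108). Its other probe sets, at -0.04 and 0.07, overlapped.

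The remaining paternally expressed genes were within 0.35 of wt. Nnat, a small membrane proteolipid of the developing brain, read 12.17 and 11.90 in Gcnf-/- embryos, against 11.81 and 11.60 in wt embryos (0.33 ± 0.13, adjusted p = 0.234). Nap1l5, a relative of nucleosome assembly proteins, had its largest gap within wt, at 6.45 and 6.47 in Gcnf-/- embryos and 5.77 and 6.46 in wt embryos (0.35 ± 0.22, adjusted p = 0.459). Mest, a hydrolase of mesoderm, read 13.60 and 13.53 in Gcnf-/- embryos, against 13.80 and 13.71 in wt embryos (-0.19 ± 0.08, adjusted p = 0.255). The groups did not overlap for Mest or Nnat. Slc38a4, an amino acid transporter gene, read 10.65 and 10.64 in Gcnf-/- embryos, against 10.43 and 10.51 in wt embryos (0.18), with -0.04 in its second probe set, and Zdbf2 overlapped at -0.05. Gnas, of the stimulatory G protein, read 13.60 and 13.55 in Gcnf-/- embryos, against 13.46 and 13.43 in wt embryos (0.13), while its 4 dimmer probe sets lay between -0.06 and 0.01.

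**Figure D4:**
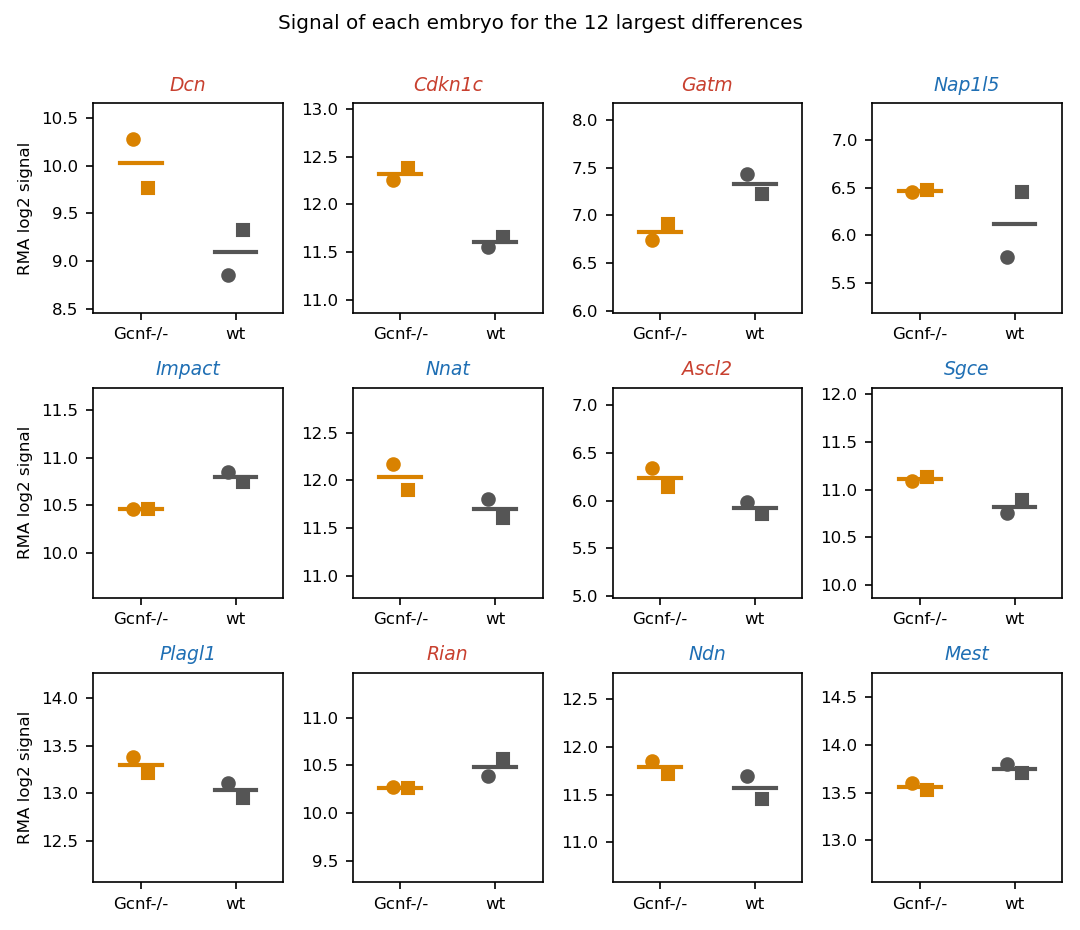
The RMA log2 signal (vertical axes, which differ in position but span the same range) is shown for the 12 imprinted genes with the largest difference, Gcnf-/- embryos left and wt embryos right, with replicate 1 as a circle, replicate 2 as a square and the mean as a line, and the names of paternally expressed genes in blue and maternally expressed ones in red. The genotypes are apart in 11 of the 12 panels, the exception being Nap1l5, where wt replicate 2 stands level with the Gcnf-/- embryos. The panels were picked by size of difference, which favours separation. The genotypes did not overlap in 61.8% of the 34 genes and 56.6% of all genes.

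Differences between embryos of a genotype were often as large as those between genotypes. In 15 of the 34 genes the larger gap between same-genotype embryos exceeded the genotype difference. The embryos numbered 1 lay above those numbered 2 in both genotypes in 17 of the 34 genes (50%), against 26.4% of all genes, and below in both in 7. Shares over all genes were not computed for the counts of 15 and 7. The numbers are not stated to mark a shared litter or day. The deviations of same-numbered embryos correlated at 0.06 over all probe sets and at -0.05 over the 34 imprinted genes.

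No gene of the machinery that keeps imprints passed the threshold, where 0.374% of all genes were lower and 1.02% higher. The share of all genes above wt was 47.2%. Of 25 listed genes for zinc finger readers, DNA methyltransferases, TET enzymes, chromatin modifiers and insulators, 24 were measured, with 10 above and 14 below wt, a median of -0.01 and none at an adjusted p of 0.05 or lower. At an unadjusted p under 0.05 there were 5 (20.8%), against 23.8% of all genes. All 24 intervals lay within -1 and 1, against 97.3% over all genes, and 22 (91.7%) within -0.5 and 0.5, against 80.5%. Dppa3, which protects maternal methylation in the zygote and marks germ cells, was highest but dim, at 6.85 and 6.85 in Gcnf-/- embryos against 6.49 and 6.22 in wt embryos (0.50, adjusted p = 0.104). The helicase Hells was at -0.22, Uhrf1, which guides Dnmt1 to newly copied DNA, at -0.20, and the methylcytosine oxidases Tet1 and Tet2 at 0.20 and 0.34.

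A further 36 genes known as imprinted in mouse, not among the 38, also held no call. Of all genes, 0.121% were called lower and 0.423% higher, and 47.2% lay above wt. Of the 31 measured, 14 lay above and 17 below wt, with a median of -0.04, none past the adjusted threshold and 14 (45.2%) at an unadjusted p under 0.05, 6 lower and 8 higher, against 23.8% of all genes. The genes nearest to the threshold were Pon3 (0.44, adjusted p = 0.0833), Mcts2 (-0.33, adjusted p = 0.0981), Cobl (0.46, adjusted p = 0.0999) and Ampd3 (0.76, adjusted p = 0.108).

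Several of the imprinted genes are known from extraembryonic tissue, and markers of those tissues were read beside them. Of all genes, 47.2% lay above wt, 0.423% were called higher and 1.02% were higher with no fold threshold. The list for allantois and extraembryonic mesoderm was above wt in 7 of 9 genes with a median of 0.67, and its mean signal was 9.97 and 10.01 in Gcnf-/- embryos, against 9.39 and 9.55 in wt embryos. Wnt2 was called higher (1.44, adjusted p = 0.0344) and Plac1, which is also known from trophoblast but stands in this list alone, rose by 0.96 (adjusted p = 0.0378). Pitx1 (-0.57) and Ahnak (-0.36) lay below wt in both Gcnf-/- embryos, and neither passed the adjusted threshold. Of 12 listed trophoblast markers 6 were measured, and 5 of these were dim, all but Hand1, which also stands in the allantois list. None of the 6 passed, and 3 lay above wt and 3 below, with a median of 0.04. Tpbpa, which defines the spongiotrophoblast, read 4.01 and 4.32 in Gcnf-/- embryos and 3.98 and 4.14 in wt embryos, near the floor. Decidua markers were above wt in 4 of 8 (median 0.01). Yolk sac endoderm markers were above wt in 2 of 11 (median -0.16), with a mean of 12.93 and 12.78 in Gcnf-/- embryos and 13.09 and 12.96 in wt embryos.

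Of the embryonic tissue markers, Map2, Myl3 and Nppa passed the adjusted threshold, in both directions. With no fold threshold, 1.02% of all genes were higher and 0.374% lower, and 47.2% of all genes lay above wt. Early neuron markers were above wt in 10 of 12 (median 0.30), where Map2 rose by 0.76 (adjusted p = 0.0282), although the mean of its probe sets gave 0.18 (adjusted p = 0.298). Heart muscle markers were above wt in 10 of 12 (median 0.42), where the myosin light chain gene Myl3 rose by 1.24 (adjusted p = 0.0404) and the atrial peptide gene Nppa fell by 1.84 (adjusted p = 0.0338). Primitive erythroid markers were above wt in all 9 measured (median 0.57), and the sclerotome and mesenchyme list, for the kind of tissue that makes decorin, in 6 of 10 (median 0.13), with mean signals of 10.67 and 10.37 in Gcnf-/- embryos and 10.48 and 10.34 in wt embryos. As with Cdkn1c and Igfbp2, the adjusted p of Wnt2, Plac1, Map2, Myl3 and Nppa was above 0.05 with the replicate block (0.167 to 0.172) and with any embryo left out. The part of tissue makeup in the values of Cdkn1c, Dcn and Gatm was not tested.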

How the data were processed

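RNA of whole embryos was labelled with biotin and hybridised to Affymetrix arrays. The authors deposited RMA log2 signals, which are background-corrected, quantile-normalised and summarised per probe set; no RMA version is stated. Such normalisation removes shifts common to most transcripts, and unspecific signal can understate differences of dim probe sets. The 4 arrays (2 per genotype) held 45101 probe sets; the 64 control probe sets were left out. Genes were named from the platform annotation (34945 probe sets with 1 symbol, 932 with several, 9160 with none). limma 3.58.1 in R 4.3.3 was fitted with genotype as the only term, with Benjamini-Hochberg adjustment over 45037 probe sets. A call required a 2-fold change with an adjusted p of 0.05 or lower. Intervals are moderated 95% intervals. An exact permutation test of 2 against 2 cannot go below p = 0.333, so every test leans on the moderated spread (prior SD 0.0849), which may be partly technical. A probe set was called dim when its mean signal was below the median of 6.84; 5 of the 34 genes were (Peg10, Ascl2, Kcnq1, Zim1 and Nap1l5).

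Values were printed for each array for genes at an adjusted p of 0.05 or lower, the 12 largest differences, genes of the named domains whose genotypes did not overlap and genes whose probe sets differed in sign, and for up to 4 genes of each list by p. The imprinted genes and the lists were chosen with earlier results of these data known. Same-numbered embryos share only a number. Alternatives were the replicate block, each array left out, brighter probe sets only, repeated quantile normalisation, median centring, an intensity trend, robust eBayes, averaging each gene's probe sets and no shared-sequence probe sets.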

Additional observations from a re-analysis of the deposited data

How the results depend on the processing

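With 2 embryos per genotype, small differences of single genes were not detectable. No imprinted gene was called at 2-fold in either direction under the 8 alternatives that kept every embryo or in the 4 fits without one (0 to 0 lower and 0 to 0 higher). With no fold threshold the count higher was 1, and it was 0 with the replicate block, 0 to 0 with an embryo left out and 2 with an intensity trend (Cdkn1c and Sgce, the second at an adjusted p of 0.0470). The count lower was 0, and it was 2 with brighter probe sets only (Gatm, adjusted p = 0.0446, and Impact, adjusted p = 0.0416), 1 with the trend (Impact, adjusted p = 0.0296), and 0 to 0 with an embryo left out. Over all 18193 genes 254 (1.4%) passed at any fold, and 0 with the block. With brighter probe sets only, 29 imprinted genes were left and 3 passed in either direction, against 1401 of 11638 genes (12%). With the trend 3 of the 34 passed in either direction, against 1601 of all genes (8.8%). The block changed no fold change.

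The paternally expressed median of 0.079 was 0.0373 without wt replicate 1 and 0.135 without Gcnf-/- replicate 2, the lowest and highest with an embryo left out, and it was 0.0573 with arrays centred on their median and 0.114 without shared-sequence probe sets. The maternally expressed median of 0.025 was 0.0167 without wt replicate 2 and 0.0627 without wt replicate 1, the lowest and highest, and it was 0.0029 with centring, -0.0264 with brighter probe sets only, -0.0310 with probe sets averaged per gene and -0.0306 without shared-sequence probe sets. The median of all genes was -0.03 with centring.

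Of 403 values of single imprinted genes under the alternatives, 16 had the other sign, and none of these passed the threshold. With probe sets averaged per gene, Meg3 was at -0.0493, Grb10 at 0.258, Kcnq1ot1 at 0.0438 and Ppp1r9a at -0.0128, and without shared-sequence probe sets Meg3 was at -0.0462. With centring Igf2 was at -0.0029. With an embryo left out, Igf2 ranged from -0.0069 to 0.0447, Peg10 from -0.148 to 0.141, Dlk1 from -0.0866 to 0.158, Slc22a18 from -0.120 to 0.0675, Kcnq1 from -0.243 to 0.0569, Snrpn from -0.0048 to 0.0789, Mkrn3 from -0.0086 to 0.207 and Zdbf2 from -0.125 to 0.0208. The cause was not tested. Alternatives for Igfbp2 and the tissue markers were chosen after seeing the data.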
